A study of Danio rerio with 5 samples.

Results

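Glycolysis, lactate and hypoxia response genes were examined in regenerated tissue of the zebrafish caudal fin. They were 35 genes chosen by name out of 31540 in the deposited tables, with earlier results of these data known. All 35 names were found, each once. They comprise the Glut1 glucose transporters, 27 enzyme genes from hexokinase to lactate dehydrogenase, a lactate transporter, 2 regulators of the pathway and 3 genes of oxygen sensing. RNA sequencing was done on 3 libraries labelled 24h and 2 labelled Control, and the labels describe the material of both groups as regenerated caudal fin. The series text speaks of fins between days 1 and 3 after the cut, but its labels do not tie the Control libraries to a day, so no time is given to them here and each contrast is simply 24h against Control. No genotype, strain, age, sex or animal is named in the labels for either group, and p-values therefore measure the spread between these libraries, which may be technical.

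Glycolysis splits glucose into pyruvate in the cytosol and yields ATP without oxygen. Pyruvate then enters the mitochondria through pyruvate dehydrogenase or is reduced to lactate, which leaves the cell through monocarboxylate transporters. When oxygen is scarce, the alpha subunit of the hypoxia-inducible factor escapes hydroxylation and the Vhl ubiquitin ligase, and in mammals it raises the transcription of many glycolytic genes. Teleost fish carry duplicate copies of many of these enzymes, named a and b, so that one step can be served by several genes.

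Libraries held 14958600 to 22341452 reads in genes, of which the 35 members took 0.317% to 0.331% in 24h and 0.262% to 0.27% in Control. Levels are given as CPM, the read count scaled to library size with TMM factors, or, where genes are compared with each other, as a length-scaled level, exon reads per kilobase of exon on the same CPM scale. A log2 fold change is positive where 24h was higher and carries an approximate standard error (SE). It comes from edgeR's quasi-likelihood test over 19034 genes, with p adjusted by Benjamini-Hochberg. In such bulk samples, fewer cells of a type and less RNA per cell cannot be told apart.

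Most steps of the pathway had at least 1 gene that rose in the 24h libraries, and the rises were modest. Of the 31 members that passed the filter on low counts, 10 were higher and 2 lower at an adjusted p under 0.05 in edgeR, or 32.3% and 6.45%, against 9.43% and 14.8% of all tested genes. The higher members were hk1, gpia, aldocb, pgk1, pgam1a, pgam1b, eno1a, eno2, pkma and the lactate transporter gene slc16a3, and the lower ones were the regulators pfkfb3 and pdk2a. The median log2 fold change of the tested members was 0.36, beside -0.0043 for all tested genes, and 3 of the rises were at least 2-fold. Every 24h library lay above every Control library in 17 of the 31 (27.7% of all tested genes) and below in 5 (29.1%). The counts rested on both Control libraries: without either one, fewer members passed in each direction, and fewer of all tested genes did too. Each of those fits has only 1 Control library. Without 24h replicate 2 the count of lower members was 1. The 4 members that did not pass the filter were not tested: slc2a1a had 3 reads in the 5 libraries together, pfkma 7, pfkmb 1 and gapdh 15.

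**Figure D1:**
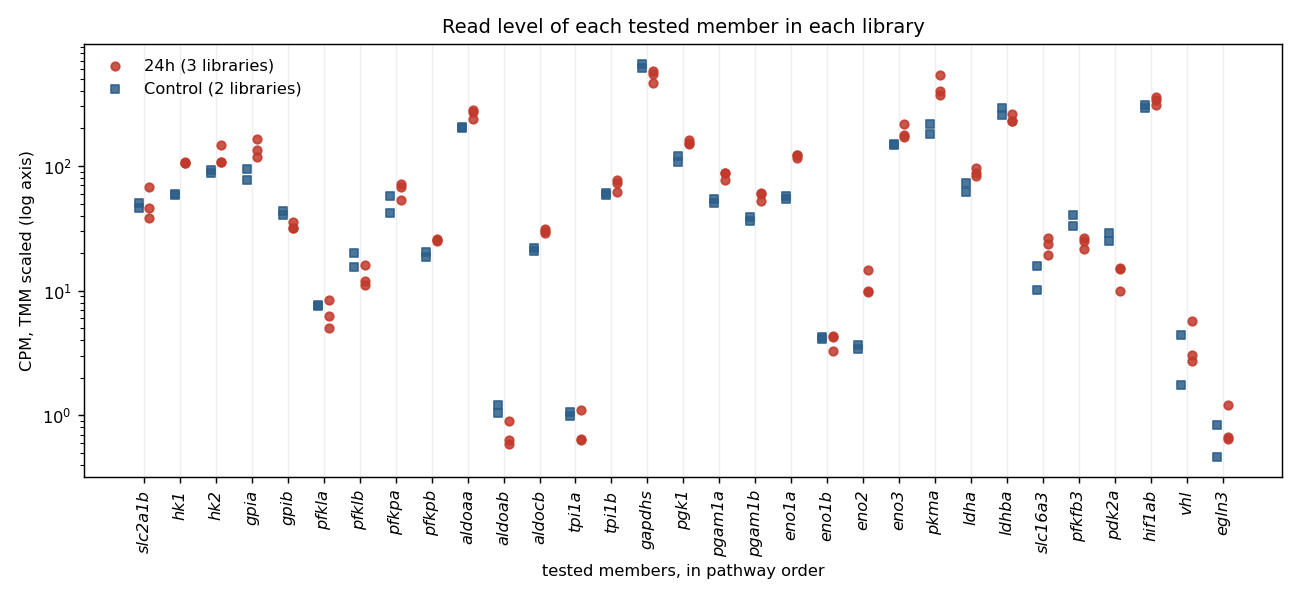
CPM (log axis) of the 31 tested members in pathway order, with circles for the 3 libraries labelled 24h and squares for the 2 labelled Control. Among the abundant members, pkma stands at 373 to 537 CPM in the 24h libraries, against 179 to 216 in Control, while hif1ab lies at 309 to 360 and 289 to 308.

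**Figure D2:**
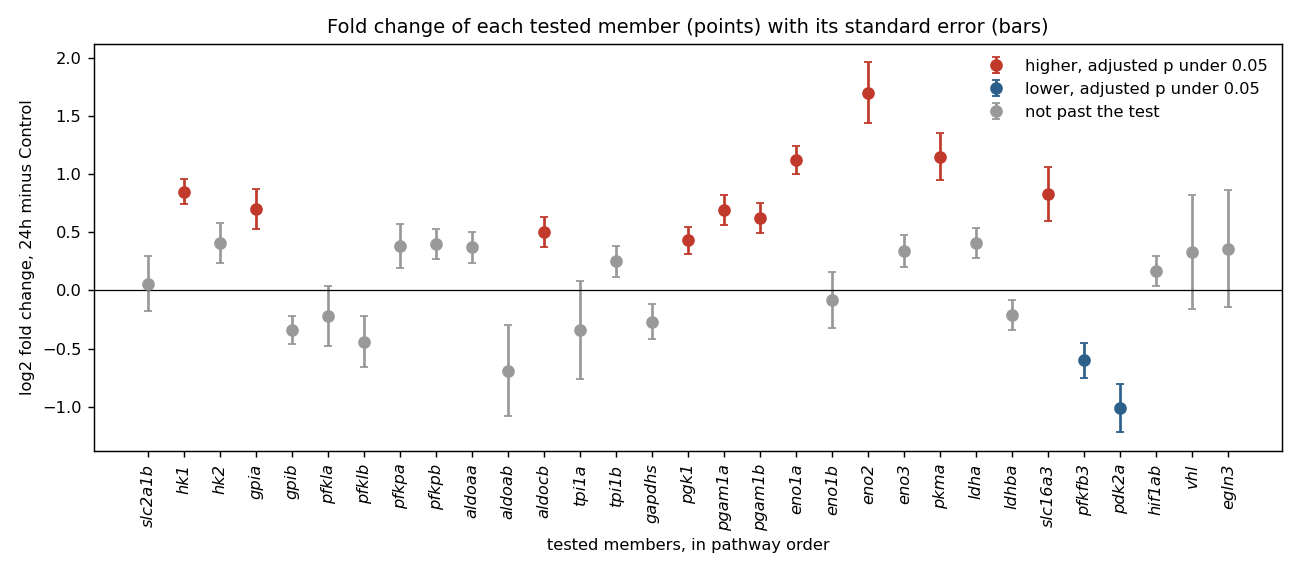
Log2 fold change (24h minus Control, points) of the 31 tested members in pathway order, with bars for the standard error. Red points are the 10 higher members, blue the 2 lower and grey the 19 not past edgeR's test; the highest point is eno2 at 1.70 and the lowest pdk2a at -1.01.

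Glucose uptake and phosphorylation came first. The transporter gene slc2a1b, which encodes a Glut1 protein, was at 38, 45.8 and 68.2 CPM in the 24h libraries, against 46.2 and 50.8 in Control. The groups overlapped and its log2 fold change was 0.06 ± 0.24 (SE, adjusted p = 0.88 in edgeR). Hexokinase traps glucose in the cell by adding a phosphate. The gene hk1, on chromosome 13 from 22842438 to 22877363 (GRCz10, as are all positions here), had 107, 106 and 106 CPM in the 24h libraries, against 58.4 and 59.9 in Control. All 3 of the 24h values lay above both Control values, and the log2 fold change of 0.85 ± 0.11 (SE) had an adjusted p of 0.002 in edgeR and of at most 0.032 in every alternative run. Its isozyme hk2 was at 148, 108 and 108 CPM against 88.6 and 93.3. These values did not overlap either, but the log2 fold change of 0.41 ± 0.17 (SE) did not pass the test (adjusted p = 0.12 in edgeR).

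The next genes rearrange the sugar and commit it to breakdown. The isomerase gene gpia was at 165, 119 and 135 CPM in the 24h libraries, against 77.5 and 94.4 in Control, with a log2 fold change of 0.70 ± 0.17 (SE, adjusted p = 0.027 in edgeR). The call did not hold without Control replicate 1 (adjusted p = 0.2) and without Control replicate 2 (0.064). Of the 6 phosphofructokinase genes, which encode the committed step, 4 were tested and none passed in edgeR. The most abundant, pfkpa, was at 53.4 to 71.6 CPM against 41.6 and 57.2, with overlapping groups and a log2 fold change of 0.38 ± 0.19 (SE). Its copy pfkpb, at 25.2 to 26.2 against 18.6 and 20.4 CPM, did not overlap and stood at 0.40 ± 0.13 (SE, adjusted p = 0.067). The liver-type genes pfkla (-0.22 ± 0.26, SE) and pfklb (-0.44 ± 0.22, SE) overlapped between groups. The muscle-type genes pfkma and pfkmb were the ones with almost no reads.

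Aldolase cuts the sugar into a pair of fragments that triosephosphate isomerase interconverts. The gene aldoaa, at 282, 269 and 239 CPM in the 24h libraries, against 204 and 202 in Control, had a log2 fold change of 0.37 ± 0.13 (SE, adjusted p = 0.072 in edgeR). DESeq2 called it (adjusted p = 0.044), as did edgeR without 24h replicate 3 (0.046). The gene aldocb, of the aldolase type found in mammalian brain, had 31, 29.2 and 29.9 CPM against 21.8 and 20.7, a log2 fold change of 0.50 ± 0.13 (SE, adjusted p = 0.029 in edgeR). Its call was lost when any library but 24h replicate 3 was left out (adjusted p = 0.051 without 24h replicate 1, 0.068 without 24h replicate 2, 0.15 without Control replicate 1 and 0.17 without Control replicate 2). For tpi1b the values were 62.3 to 76.5 and 58.5 to 60.5 CPM, and the log2 fold change of 0.25 ± 0.13 (SE) did not pass.

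The lower part of the pathway, from gapdhs to pkma, held the 3 widest rises. The dehydrogenase gene gapdhs was the most abundant member by length-scaled level in both groups, at 362 in 24h and 437 in Control. Its CPM values were 546, 460 and 580 against 613 and 661, lower in every 24h library, with a log2 fold change of -0.27 ± 0.15 (SE, adjusted p = 0.22 in edgeR). The gene pgk1, whose kinase makes the first ATP, went from 108 and 121 CPM in the Control libraries to 161, 152 and 150 in the 24h libraries, a log2 fold change of 0.43 ± 0.12 (SE). Its adjusted p of 0.04 in edgeR was lost whichever library was left out: 0.06, 0.091 and 0.051 for the 24h replicates in turn and 0.29 and 0.12 for the Control replicates. The mutase genes moved together. Values of pgam1a were 88.5, 88.2 and 77.4 against 50.6 and 54.2 CPM (log2 fold change 0.69 ± 0.13, SE, adjusted p = 0.0081 in edgeR). Those of pgam1b were 61.2, 59.2 and 52.8 against 39 and 36.3 CPM (0.62 ± 0.13, SE, adjusted p = 0.013 in edgeR). Both calls were lost without Control replicate 1 (adjusted p = 0.091 and 0.082) and without Control replicate 2 (0.053 and 0.11).

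Enolase, which makes phosphoenolpyruvate, had 2 of its 4 member genes higher. The gene eno1a (ENSDARG00000022456), on chromosome 23 from 22729926 to 22751447, was at 123, 116 and 123 CPM in the 24h libraries, against 54 and 57.4 in Control. The groups lay far apart beside their spread, and the log2 fold change was 1.12 ± 0.12 (SE), or 2.17-fold, with an adjusted p of 0.0007 in edgeR and of at most 0.014 in every alternative. The gene eno2, of the enolase type known from mammalian neurons, lies on chromosome 19 from 5156432 to 5174246 and rose from 3.64 and 3.43 CPM to 9.83, 14.6 and 10. That was the widest rise among the tested members, a log2 fold change of 1.70 ± 0.26 (SE), or 3.25-fold, with an adjusted p of 0.0035 in edgeR. Of its reads 77.7% were unique, and a gene model on the other strand overlaps it. With unique reads alone the log2 fold change was 1.74. Of 5 nerve and glia markers tested beside it, 3 were lower and 1 was higher, beside 14.8% and 9.43% of all tested genes. The lower ones were sncga (-2.98), sox10 (-4.53) and gfap (-2.53), the higher one was stmn2b (1.89), and elavl4 (-1.15) did not pass. The call of stmn2b was lost without Control replicate 1 (log2 fold change 1.79) or Control replicate 2 (2.00). The summed level of that list was 6.21 to 7.07 CPM in 24h and 21.5 to 23.7 in Control. The part of nerve or glia in the rise of eno2 was not tested. The muscle-type gene eno3 had 218, 178 and 170 CPM against 148 and 150, and its log2 fold change of 0.34 ± 0.14 (SE) did not pass (adjusted p = 0.13).

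Pyruvate kinase closes glycolysis with a further ATP. The gene pkma (ENSDARG00000099730), on chromosome 18 from 1014890 to 1059194, had 537, 373 and 402 CPM in the 24h libraries, against 179 and 216 in Control. Every 24h value exceeded every Control value, by 2.22-fold on average (log2 fold change 1.15 ± 0.20, SE, adjusted p = 0.006 in edgeR). Its call was lost without Control replicate 1, where the log2 fold change was 1.02 and the adjusted p 0.073. By length-scaled level pkma was the fifth of the 35 members in the Control libraries and the second in the 24h libraries (66.5 and 149).

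Lactate genes differed among themselves. The dehydrogenase gene ldha, whose mammalian counterpart favours the reduction of pyruvate to lactate, was at 97.1, 82.9 and 87.6 CPM in the 24h libraries, against 62.4 and 72.4 in Control. These did not overlap, but the log2 fold change of 0.41 ± 0.13 (SE) had an adjusted p of 0.067 in edgeR, and over all alternatives it ran from 0.053 to 0.38. For ldha 31% of the reads were intron reads and 83.9% were unique, and its gene model, 71674 bases long, overlaps ccl35.2 on the same strand and tsg101a on the other. With exon reads alone its log2 fold change was also 0.41. The more abundant ldhba, a gene of the heart-type subunit, was at 228 to 261 against 258 and 293 CPM, with overlapping groups and a log2 fold change of -0.21 ± 0.13 (SE). The transporter gene slc16a3, whose mammalian counterpart exports lactate, rose from 15.7 and 10.2 CPM to 23.7, 19.3 and 26.4, a log2 fold change of 0.83 ± 0.23 (SE, adjusted p = 0.038 in edgeR). Its call was lost without 24h replicate 1 (adjusted p = 0.085), 24h replicate 3 (0.068) or Control replicate 2 (0.19, log2 fold change 0.57).

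Both regulators of the pathway fell. The gene pfkfb3, of an enzyme that makes fructose 2,6-bisphosphate, an activator of phosphofructokinase, was at 25, 21.6 and 26.4 CPM in the 24h libraries, against 33.1 and 40.4 in Control. Its log2 fold change was -0.60 ± 0.15 (SE, adjusted p = 0.029 in edgeR), and the call was lost without 24h replicate 2 (adjusted p = 0.086), Control replicate 1 (0.069) or Control replicate 2 (0.21). The kinase gene pdk2a, whose product switches off pyruvate dehydrogenase, lies on chromosome 12 from 28444506 to 28456087 and had 15.2, 14.9 and 9.93 CPM against 24.8 and 29.1. It was 2.01-fold lower in the 24h libraries, a log2 fold change of -1.01 ± 0.21 (SE, adjusted p = 0.014 in edgeR), a call that did not hold without Control replicate 1 (adjusted p = 0.053) or Control replicate 2 (0.1).

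None of the 3 oxygen-sensing members passed the test in edgeR. The gene hif1ab, of an alpha subunit of the hypoxia-inducible factor, was abundant, at 337, 309 and 360 CPM in the 24h libraries, against 289 and 308 in Control, with a log2 fold change of 0.17 ± 0.13 (SE, adjusted p = 0.38). The ubiquitin ligase gene vhl had 230 and 100 reads in the 2 groups, and its values of 5.67, 3.05 and 2.73 CPM against 1.74 and 4.42 overlapped (log2 fold change 0.33 ± 0.49, SE), with 74.2% of its reads unique. The prolyl hydroxylase gene egln3, which hypoxia raises in mammals, had 51 and 23 reads (log2 fold change 0.36 ± 0.50, SE), so that only a large difference could have been detected at this depth.

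At several steps 1 copy carried nearly all of the length-scaled level. At the gapdh step gapdhs had 52329 exon reads in the 5 libraries and gapdh 14. The corresponding counts were 6171 for tpi1b and 82 for tpi1a, 22597 for aldoaa and 42 for aldoab, and 3746 for slc2a1b and 2 for slc2a1a. Other copies were nearer each other: pgam1a had 2.12 times the length-scaled level of pgam1b in the 24h and 1.99 times in the Control libraries, and pfklb had 1.85 and 2.13 times that of pfkla. Outside the members, pkmb, pgam2, ldhbb, aldoca and eno4 each held less than 1% of their step.

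The balance of copies was followed as a log2 ratio of length-scaled levels within each library, which does not depend on library scaling. Of 12 pairs, 10 had at least 10 exon reads for each copy, and in 5 of these the groups did not overlap. Among all tested genes taken singly, 27.7% had every 24h library above every Control library and 29.1% every one below. No such share was computed for pairs of genes. The two-sided exact permutation test used here doubles the smaller one-sided p, and with 3 libraries against 2 it cannot give less than 0.2. No pair could therefore pass, and the Benjamini-Hochberg value over the 10 pairs was 0.4 for each of the 5. The widest well-measured shift was that of eno1a over eno1b, at log2 ratios of 4.24, 4.12 and 4.61 in the 24h libraries, against 3.14 and 3.20 in Control. That is a 20-fold excess against 9.02-fold. The second copy, eno1b, had similar CPM in both groups (4.26, 4.32 and 3.31 against 4.12 and 4.29), and its log2 fold change was -0.08 ± 0.24 (SE).

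The ratio of ldha to ldhba was -2.43, -2.46 and -2.26 in the 24h libraries, against -3.20 and -2.78 in Control, so ldhba was 5.22 times as high as ldha in the former and 7.96 times in the latter. For hk1 over hk2 the log2 ratios were -0.78, -0.31 and -0.29 against -0.86 and -0.89. The 2 remaining shifts rested on few reads of the minor copy: aldoaa over aldoab, whose mean log2 ratio was 9.74 against 7.79, and tpi1a over tpi1b, at -5.80 against -5.16. Pairs that overlapped were pgam1a with pgam1b, pfkpa with pfkpb, pfkla with pfklb, gpia with gpib and gapdh with gapdhs. Their mean log2 ratios differed by between -0.19 and 0.20. Few reads of the minor copy limit the last pairs too, with 63 exon reads for gpib and 14 for gapdh. In the 24h libraries the SD of the log2 ratio was 0.64 for gpia over gpib and 0.96 for gapdh over gapdhs. A small mean difference therefore says little for these pairs.

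**Figure D3:**
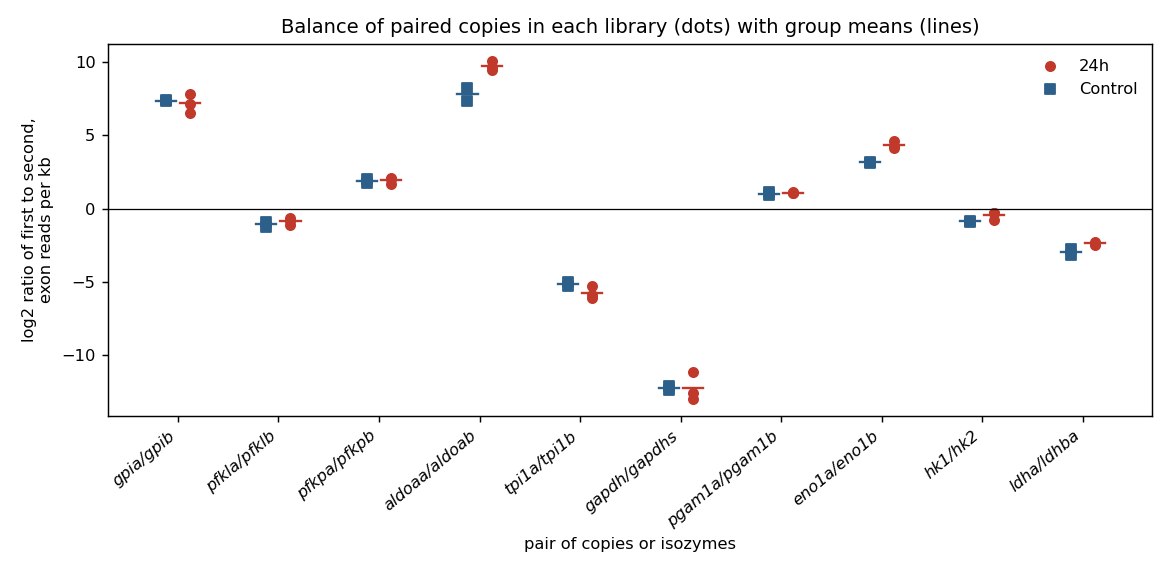
Log2 ratio of the first to the second gene of each pair, in exon reads per kilobase, for the 10 pairs with enough reads; dots are libraries and short lines group means. For eno1a over eno1b the 24h libraries lie between 4.12 and 4.61 and the Control libraries at 3.14 and 3.20, whereas for pgam1a over pgam1b all 5 libraries lie between 0.89 and 1.11.

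The gene gpib needs a separate account, since 98.2% of its reads were intron reads and only 53.7% were unique. Its gene model spans 498303 bases of chromosome 18 and contains or overlaps 9 other gene models, among them nedd4a and prtga on the same strand. On total reads it was at 35.3, 32.1 and 31.9 CPM in the 24h libraries, against 43.6 and 40.4 in Control, a log2 fold change of -0.34 ± 0.12 (SE, adjusted p = 0.083 in edgeR). Its exon reads numbered 12, 25 and 12 against 7 and 7, and on those the log2 fold change was 0.97 (adjusted p = 0.17). No direction can therefore be given for gpib.

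Summed over all copies in the tables, the length-scaled level of a step shows how far copies offset each other. For pyruvate kinase the sum was 188, 126 and 132 in the 24h libraries, against 59.2 and 74 in Control, a ratio of 2.23. Ratios of 1.48 to 1.62, with groups that did not overlap, were found for hexokinase (1.52), glucose-6-phosphate isomerase (1.62), phosphoglycerate mutase (1.6) and enolase (1.48). Phosphoglycerate kinase stood at 1.34 and triosephosphate isomerase at 1.17, also without overlap. The exact permutation p of each of these, two-sided, was 0.2, the smallest that this form of the test gives with 3 libraries against 2. Taken singly, 27.7% of all tested genes had every 24h library above every Control library, and 29.1% had them all below. No such share was computed for step sums.

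At the other 5 steps the groups overlapped or the sum was lower. The sum was 0.829 times as high in the 24h libraries for glyceraldehyde-3-phosphate dehydrogenase, without overlap, and 0.917 times for lactate dehydrogenase, with overlap. For phosphofructokinase (1.19) and Glut1 (1.09) the groups overlapped. Aldolase had a ratio of 1.04, with 203, 189 and 181 against 191 and 176. Within it aldoaa took 73.1% ± 2.64 (SD, n = 3) of the length-scaled level in the 24h and 59.1% ± 2.99 (SD, n = 2) in the Control libraries. Within enolase the share of eno3 was 63% ± 2.76 (SD, n = 3) in 24h and 74.1% ± 0.44 (SD, n = 2) in Control, and that of eno1a 32.6% ± 2.59 (SD, n = 3) and 22.2% ± 0.587 (SD, n = 2). Shares within a step are tied to each other, so one rises where another falls.

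**Figure D4:**
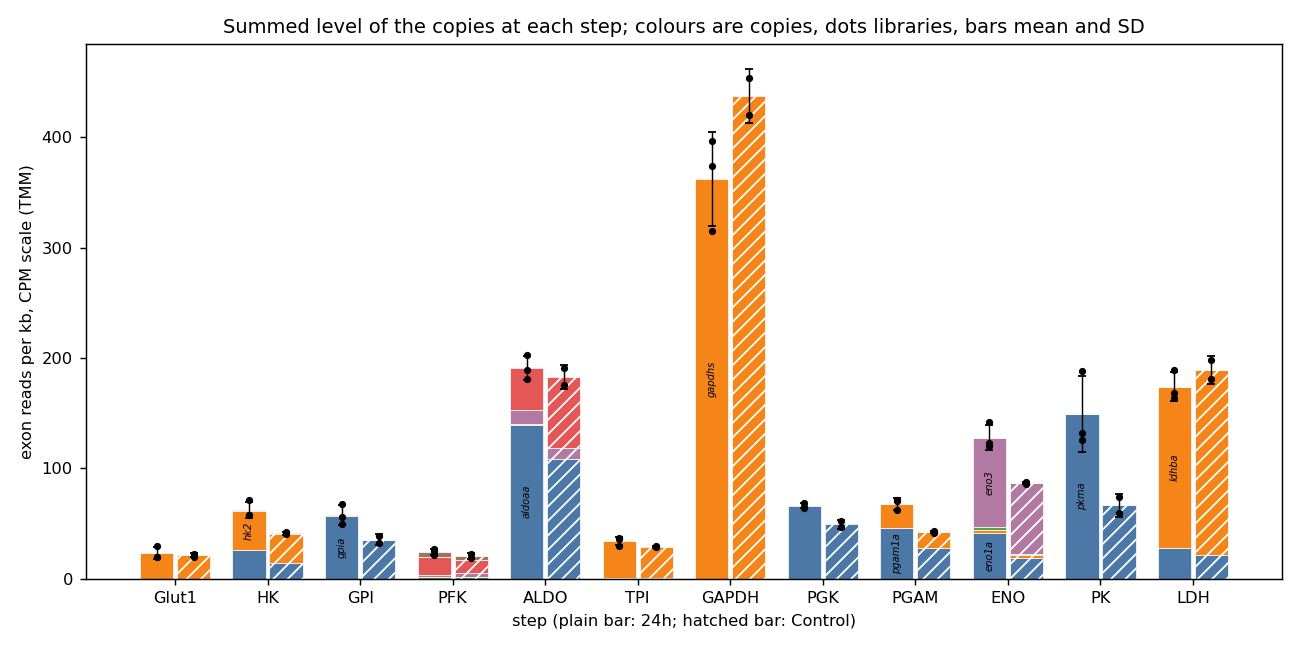
Summed length-scaled level (exon reads per kilobase, on the CPM scale) of all copies at each step, plain bars for the 3 libraries labelled 24h and hatched bars for the 2 labelled Control; colours are copies, dots libraries and error bars the SD. Pyruvate kinase (PK) goes from 66.6 to 149, while aldolase (ALDO) is at 191 and 183 and GAPDH, the tallest, at 362 and 437.

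Other genes of the pathway were taken from 8 lists chosen by function, with earlier results of these data known. Of 149 tested, 21 were higher and 24 lower, or 14.1% and 16.1%, against the 9.43% and 14.8% of all tested genes. The count of higher genes depended on the Control libraries, at 4 without replicate 1 and 6 without replicate 2, and was 13 without 24h replicate 2. In the tricarboxylic acid cycle, which oxidises the carbon that pyruvate brings into the mitochondria, 6 of 19 were higher and 0 lower in edgeR, where also 0 had an unadjusted p under 0.05 in that direction and DESeq2 called 0. Its median log2 fold change was 0.33. The isocitrate dehydrogenase gene idh3g had a log2 fold change of 0.52. Its call was lost without either Control library, where the log2 fold change was 0.52 in each fit. It was also lost with limma on log2(TPM + 1) (adjusted p = 0.087) and on log2(TPM + 0.1) (0.084).

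Of 22 genes of lactate and pyruvate fate, 2 were higher and 1 lower, beside 9.43% and 14.8% of all tested genes. The pyruvate dehydrogenase subunit gene dlat was higher (0.54, from 71.2 and 77 CPM to 111, 104 and 108), as was the mitochondrial pyruvate carrier gene mpc1 (0.49), and the alanine transaminase gene gpt2l was lower (-1.12). The call of dlat was lost without Control replicate 1 (log2 fold change 0.48) or Control replicate 2 (0.61). That of mpc1 was lost without Control replicate 1 (log2 fold change 0.47) or Control replicate 2 (0.51). In edgeR it was also lost without 24h replicate 2 (adjusted p = 0.078) and with unique reads (0.05). Of 14 other glycolysis genes, 2 were higher and 5 lower. The lower ones included slc2a11b (-5.00), a sugar transporter gene known from pigment cells of fish. Among pigment cell types only melanophores had a marker list, which need not stand for the cells that express slc2a11b. Melanophore markers were lower, 7 of 7, with summed levels of 3.57 to 6.56 CPM in 24h and 197 to 217 in Control. The part of pigment cells in the fall of slc2a11b was not tested.

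Side branches had genes called in both directions, as had all tested genes (9.43% higher and 14.8% lower). Of 15 pentose phosphate and serine genes, 2 were higher, including gfpt2 (1.07; adjusted p = 0.059 without Control replicate 1), which starts hexosamine synthesis, and 2 lower, including the serine synthesis gene psat1 (-1.35). Of 15 glycogen genes, 1 was higher and 3 were lower, led by the glycogenin gene gyg1b (-3.89, from 31.6 and 18.6 CPM to 1.91, 1.44 and 1.75) and the phosphorylase gene pygb (-1.37). Among 11 fructose bisphosphate regulators and gluconeogenic genes, pck2 was lower (-0.96) and 0 were higher in edgeR, where 3 had an unadjusted p under 0.05; DESeq2 called 1 of these, pfkfb2a (0.65 in edgeR, adjusted p = 0.058).

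Hypoxia genes outside the members gave no common direction. Of 16 factors and sensors, 1 was higher and 2 lower, beside 9.43% and 14.8% of all tested genes. Their median log2 fold change was -0.26. The lower ones were hif1aa, the other copy of the factor gene, at 1.12, 1.14 and 1.1 CPM against 4.43 and 4.55 (-1.99 ± 0.26, SE, adjusted p = 0.0019 in edgeR), and epas1a (-0.92). The call of epas1a was lost without 24h replicate 1, 24h replicate 2 or either Control library (adjusted p = 0.055 to 0.2).

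Of 37 hypoxia response targets, 7 were higher and 10 lower, with a median of -0.14, beside 9.43% and 14.8% of all tested genes. The 2 with the smallest p, plod1a (-2.11) and plod2 (-2.31), encode lysyl hydroxylases that modify collagen, and the prolyl hydroxylase genes p4ha1a (-1.26), p4ha1b (-2.35) and p4ha2 (-1.27) of the same matrix pathway were lower too. The call of p4ha1a was lost without Control replicate 2 (adjusted p = 0.081). Osteoblast markers were lower beside them, 7 of 10, with summed levels of 3298 to 4311 CPM in 24h and 31096 to 31476 in Control. Collagen genes held most of those sums. Levels of col1a1a were 3134 to 4124 CPM in 24h against 19933 and 19766, and of col10a1a 9.78 to 52.3 against 10802 and 10588. The markers runx2a, runx2b and spp1 did not pass. The part of osteoblasts in the falls of the hydroxylase genes was not tested. Among the higher ones, picked after their values were seen, were the carbonic anhydrase gene ca9 (3.42, at 9.73, 7.2 and 14.3 against 1.06 and 0.857 CPM), the haem oxygenase gene hmox1a (1.91) and the vessel growth factor gene vegfaa (1.08, at 38.1, 31 and 32.3 against 17.3 and 14.7 CPM). The mitophagy gene bnip3 was lower (-1.10), a call lost without Control replicate 1 (adjusted p = 0.064) or Control replicate 2 (0.078).

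**Figure D5:**
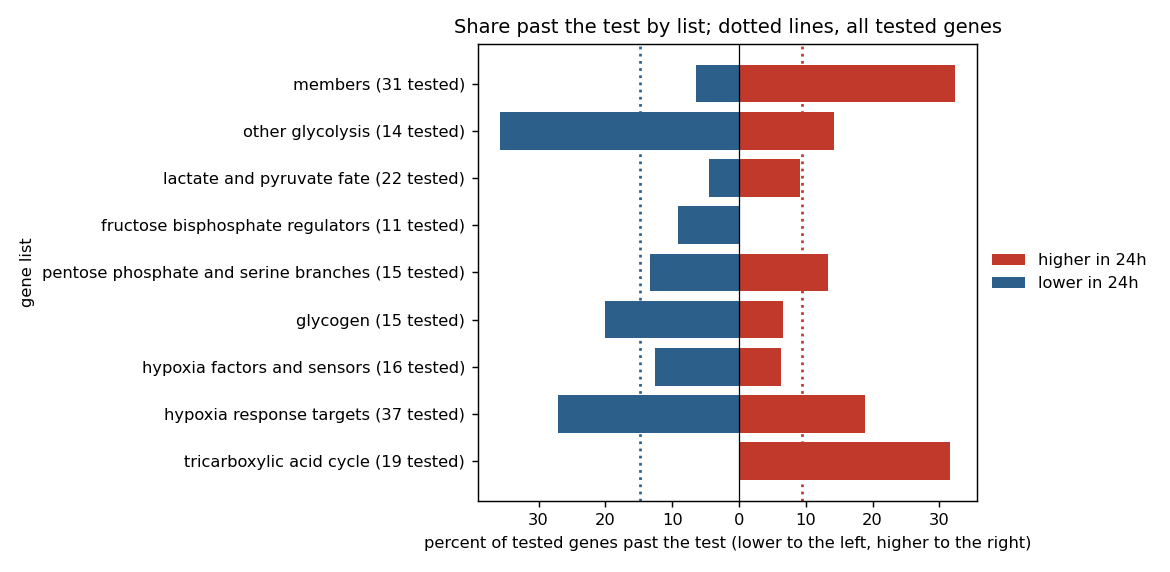
Percent of tested genes past edgeR's test in the members and in 8 other lists of the pathway, with those higher in 24h to the right and those lower to the left; dotted lines mark the 9.43% and 14.8% of all tested genes. The members (10 of 31) and the tricarboxylic acid cycle (6 of 19) reach farthest to the right, and other glycolysis genes (5 of 14) farthest to the left.

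Markers of cell types changed between the groups as well; of all tested genes 9.43% were higher and 14.8% lower. Of 10 epidermis markers 5 were higher and 2 lower, with summed levels of 44762 to 57204 CPM in 24h and 50338 to 56371 in Control. Markers of skeletal muscle, a tissue rich in glycolytic enzymes, were mostly near 0: 16 of 21 markers were under 1 CPM in every library, the parvalbumin gene pvalb2 and myog had no read, and of 6 tested 2 were higher and 2 lower. Their summed level was 42.8 to 50.5 CPM in 24h and 59.9 to 76.9 in Control. Endothelial markers were lower in 7 of 9 (28 to 30.6 against 173 and 174 CPM summed), macrophage and neutrophil markers in 6 of 11 (246 to 340 against 481 and 482) and red cell markers in 3 of 5 (14 to 32.8 against 68 and 68.7). Of 12 proliferation genes 1 was lower (611 to 792 against 752 and 948 CPM summed). In the endothelial, osteoblast, melanophore, macrophage and neutrophil, red cell and proliferation lists 0 genes were higher in edgeR, 0 had an unadjusted p under 0.05 in that direction and DESeq2 called 0. What these shifts contribute to the members' differences was not tested.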

How the data were processed

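RNA sequencing tables of 5 zebrafish caudal fin libraries were used, 3 labelled 24h and 2 labelled Control. The kit was for stranded mRNA, per the labels' protocols. The genome build was GRCz10, per the submitters' processing notes; for the aligner, the counting program and the use of strand in counting, the sources used here give nothing. Per the file headers, each deposited table holds, per gene, integer counts of reads (total, unique, exon and intron), and TPM values that the authors scaled for exon length and library size. PCR copies were not marked.

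Total gene read counts of all 5 libraries were tested with edgeR 4.0.16 (R 4.3.3; TMM scaling, filterByExpr, robust quasi-likelihood F test, Benjamini-Hochberg adjustment over 19034 genes, threshold 0.05). Genes below the filter held no more than 0.107% of any library's reads; the common biological coefficient of variation (20.2%) is the spread between replicates. Standard errors were taken as log2 fold change over the root of the F statistic. No covariate was used, since the labels give no batch, animal or replicate number; replicate numbers here only name a library within its group and pair nothing. Copy ratios used exon reads with 0.5 added, tested by exact permutation.

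Alternatives were DESeq2 1.42.0, RLE or no scaling, other count filters, unique or exon reads, limma 3.58.1 on log2 TPM, and each library left out. The code was tested on simulated data. The members and lists were chosen with earlier results of these data known. Genes named are all members, the 2 genes of each pathway list with the smallest p (some are not reported here), and others said to be picked afterwards or given as examples of a list after their values were seen.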

Additional observations from a re-analysis of the deposited data

How the results depend on the processing

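No paired analysis was possible because the labels number no replicates within a group, and the replicate numbers used here only name libraries. The member counts of 10 higher and 2 lower were the same with RLE scaling, library totals only, no low-count filter, a stricter filter, unique reads and exon reads, and 11 and 2 with DESeq2. With limma on log2(TPM + 1) and on log2(TPM + 0.1) they were 7 and 1, without aldocb, pgk1, slc16a3 and pfkfb3. Leaving out 1 library gave 4 to 9 higher and 0 to 2 lower members, 418 to 1740 higher and 1372 to 2953 lower among all genes (1794 and 2824 with all libraries), 4 to 19 higher pathway genes, and 5 to 7 copy pairs without overlap. Limma called 1145 and 1173 genes higher with the 2 pseudocounts. The cause of these shifts was not tested, but each left-out fit has fewer libraries.

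Signs turned for 5 members, none of them past edgeR's test: gpib was at 0.97 with exon reads, 0.35 on log2(TPM + 1) and 0.77 on log2(TPM + 0.1); over the fits that leave out 1 library, egln3 ran from -0.01 to 0.88, vhl from -0.21 to 1.15 (-0.08 without 24h replicate 1), eno1b from -0.14 to 0.03 and slc2a1b from -0.21 to 0.23 (-0.01 without Control replicate 1). Step sums kept their direction under TMM, RLE, library totals and deposited TPM. Their groups changed between overlap and none for phosphofructokinase and lactate dehydrogenase. Depth limits vhl, egln3, aldoab and tpi1a, and the 4 members with 1 to 15 reads.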
